A study of Homo sapiens with 12 samples.

Results

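The metallothioneins are small cysteine-rich proteins of the cytoplasm and nucleus that hold zinc and copper ions in clusters of metal and sulphur. In humans they form 1 gene cluster on chromosome 16, and all probe sets that the platform table names MT2A, MT3, MT4 or MT1 with 1 further letter were taken here as the family. That rule gave 11 genes with 1 probe set each (MT1B, MT1E, MT1F, MT1G, MT1H, MT1L, MT1M, MT1X, MT2A, MT3 and MT4), of the 53617 probe sets on the array, of which 16098 carried 1 gene symbol. The rule used the symbol alone and no measured value, so all 11 are reported and none was removed for a low signal.

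The arrays came from HuH-7 cells, an established line from a human hepatoma, kept in low glucose medium with serum and transfected for 72 h with 1 of 4 synthetic oligonucleotides. These were a mimic of miR1908-5p, a mimic control, a hairpin inhibitor of miR1908-5p and an inhibitor control, with 3 arrays each (12 in all). The sample labels give a dose of 9 nM for every oligonucleotide. Both controls carried the dye Dy547, which the mimic and the inhibitor are not said to carry, and every culture, controls included, received transfection reagent and an oligonucleotide, so no group stands for untreated cells. The repeat number (1, 2 or 3) stands for the occasion on which the 4 treatments were carried out side by side. All values below are the authors' normalized log2 values, and a log2 difference of 1 is a doubling.

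Metallothioneins buffer free zinc and take up copper and cadmium, and their thiols react with oxidants. In liver cells the MT1 and MT2 genes are known to be induced by zinc through MTF1, a zinc finger factor that binds metal response elements in their promoters, and also by glucocorticoids, by interleukin-6 in the acute phase and by oxidative stress. MT3 is known mainly from brain and MT4 from stratified epithelia.

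By RefSeq the family lies on GRCh38.p14 within chr16:56565073-56684196, a stretch of 119.124 kb with 16 metallothionein genes and pseudogenes, of which 11 are protein coding. Along the chromosome the measured members run MT4, MT3, MT2A, MT1L, MT1E, MT1M, MT1B, MT1F, MT1G, MT1H and MT1X. MT1L is a transcribed pseudogene in RefSeq and the other 10 measured members are protein coding. The 5 genes of the cluster with no named probe set here were MT1A, MT1CP, MT1DP, MT1IP and MT1JP. Because the transcripts of the cluster are closely alike, a probe set named for 1 gene can also read others, and the extent of this was not tested. No pair of members had an equal value on any array, so none is a copy of another.

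The oligonucleotide behind the main comparison copies the mature miR1908-5p, which is shown first because its first bases set what a miRNA binds. RefSeq places it at chr11:61815209-61815229 on the minus strand (GRCh38.p14), with a length of 21 bases, and the capitals mark the seed, bases 2 to 8 from the 5′ end.
miR1908-5p: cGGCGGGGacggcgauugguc

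Promoter windows of RefSeq (250 bases before to 50 bases after the gene start) were at hand for 5 of the 11 members, MT4, MT2A, MT1B, MT1H and MT1X. The 250 bases before the start are given for 3 members with differing responses below and for MT4, from the other end of the cluster, to show how densely the metal response element recurs in them. Capitals mark the core of that element on either strand, TGCACNC or TGCGCNC.
MT1H, chr16:56669564-56669813, plus strand: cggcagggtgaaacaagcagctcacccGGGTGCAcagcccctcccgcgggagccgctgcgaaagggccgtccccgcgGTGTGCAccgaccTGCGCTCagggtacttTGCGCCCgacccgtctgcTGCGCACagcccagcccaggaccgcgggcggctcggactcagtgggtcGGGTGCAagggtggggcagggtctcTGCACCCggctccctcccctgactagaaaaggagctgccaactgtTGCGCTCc
MT1X, chr16:56682220-56682469, plus strand: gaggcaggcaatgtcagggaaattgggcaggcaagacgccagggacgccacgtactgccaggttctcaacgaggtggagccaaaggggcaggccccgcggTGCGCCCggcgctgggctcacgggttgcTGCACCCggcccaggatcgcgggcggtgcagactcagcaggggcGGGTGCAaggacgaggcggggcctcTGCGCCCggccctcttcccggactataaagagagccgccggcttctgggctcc
MT2A, chr16:56608334-56608583, plus strand: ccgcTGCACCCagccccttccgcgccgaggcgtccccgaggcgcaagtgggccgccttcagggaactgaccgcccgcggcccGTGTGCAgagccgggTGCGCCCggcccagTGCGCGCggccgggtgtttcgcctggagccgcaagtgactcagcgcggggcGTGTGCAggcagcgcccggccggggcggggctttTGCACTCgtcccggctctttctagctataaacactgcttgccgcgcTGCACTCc
MT4, chr16:56564823-56565072, plus strand: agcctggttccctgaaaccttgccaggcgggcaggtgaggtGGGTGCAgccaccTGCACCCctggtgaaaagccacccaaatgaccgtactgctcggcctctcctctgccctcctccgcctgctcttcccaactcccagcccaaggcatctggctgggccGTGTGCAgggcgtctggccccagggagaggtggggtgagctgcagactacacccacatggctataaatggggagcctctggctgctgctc

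The windows of MT1H and MT2A each held 8 cores, that of MT1X held 4, and those of MT1B and MT4 held 3 each. In MT2A 7 of the 8 lay before the start, and in the other 4 genes all did. Of 35116 RefSeq promoter windows of the same length, 29.6% held at least 1 core, 2.3% at least 3, 0.601% at least 4 and 0.0199% at least 8. An antioxidant response element (TGACNNNGC, either strand), which binds the oxidant factor NRF2, matched once each in MT2A, MT1B and MT1X and in no position of MT1H or MT4, against 13.3% of all windows with at least 1. No metal response core overlapped an antioxidant element in these windows. A match describes the letters of a window and does not show that a factor binds there.

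**Figure D1:**
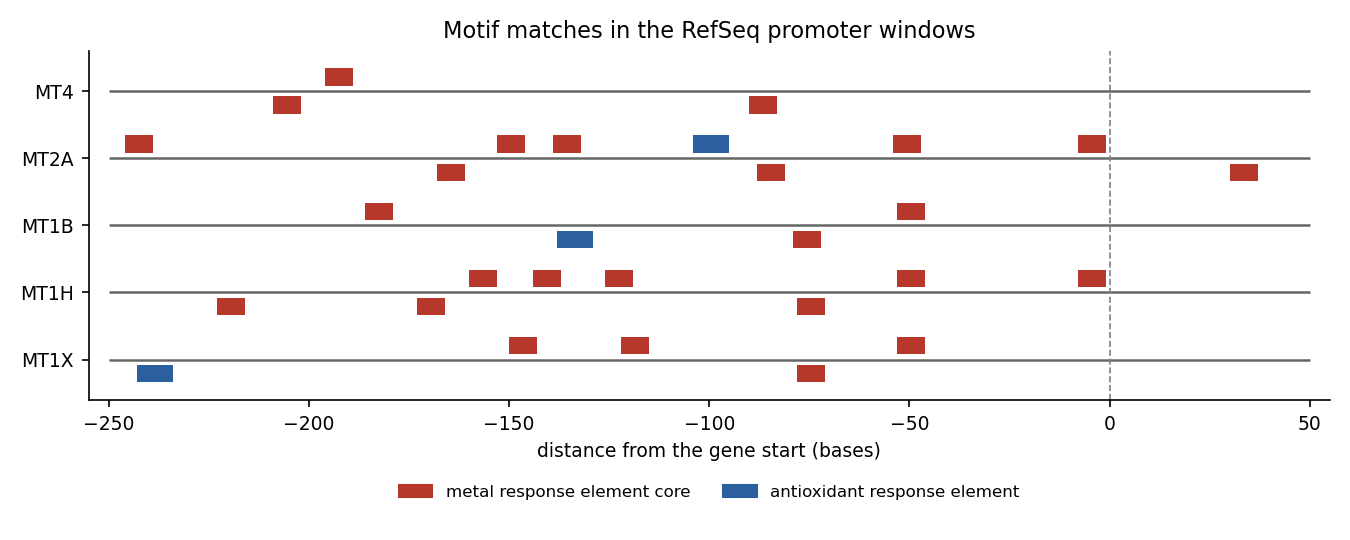
Position of motif matches in 5 metallothionein promoter windows, as bases from the gene start (dashed line), with boxes above a line on the gene's strand and below it on the other strand. MT1H and MT2A carry 8 metal response cores each, against 3 in MT4 and MT1B.

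The first question was whether the family moved with the mimic. Against the mimic control, 10 of the 11 probe sets had a higher mean with the mimic, with a median log2 difference of 0.53 over the members (range -0.06 to 1.46), beside a median of -0.0025 and 49.5% of probe sets higher over the whole array. In limma 7 members were higher at an unadjusted p under 0.05, against 2.2% of all probe sets called higher by that rule. None of the 11 passed at an adjusted p under 0.05 over all probe sets in limma, where 0.0149% of probe sets did. With the repeat number as a block, 8 members were higher at the unadjusted threshold (background 3.49%) and 1, MT1H, passed at the adjusted one (background 0.0448%). The 3 mimic arrays lay above all 3 mimic control arrays for 5 members, MT1F, MT1H, MT1L, MT1M and MT1X (background 4.24%). With 3 arrays a group, an exact two-sided permutation test of 1 gene cannot go below p = 0.1, so the tests given here are those of limma.

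MT1H, an MT1 isoform gene near the telomeric end of the cluster, had the largest difference of the 11. It read 7.74, 7.05 and 7.73 with the mimic in repeats 1, 2 and 3, and 5.90, 5.78 and 6.47 with the mimic control. Every mimic array stood above every control array, and the lowest difference within a repeat was 1.26. The mimic control mean of MT1H, 6.05, was below that of MT4, 6.64, and whether it read above background was not tested. The log2 difference was 1.46 with a standard error of 0.27 (95% interval 0.86 to 2.05, adjusted p = 0.258 in limma), and with the repeat block the standard error was 0.15 and the adjusted p 0.0221. In the inhibitor arm MT1H read 6.67, 6.34 and 6.71 with the inhibitor and 6.65, 5.996 and 6.88 with its control. All 6 of these arrays were below the lowest mimic array, and their range overlapped that of the mimic control.

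MT1M, another MT1 isoform known to be expressed in liver, followed. Its values were 9.57, 9.45 and 8.94 with the mimic and 8.17, 8.65 and 8.20 with the mimic control. The groups did not overlap, and repeat 3 gave the lowest of the mimic values. The log2 difference was 0.98 with a standard error of 0.20 (adjusted p = 0.424 in limma, 0.103 with the repeat block). With the inhibitor it read 8.43, 8.79 and 8.40, and with the inhibitor control 8.52, 8.81 and 8.55, all of them below the lowest mimic array.

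MT1X, a widely expressed MT1 isoform and the last gene of the cluster, read 11.63, 11.46 and 11.05 with the mimic and 10.46, 10.82 and 10.15 with the mimic control. All mimic arrays were above all control arrays, with a difference of 0.90 and a standard error of 0.21 (adjusted p = 0.527 in limma, 0.0999 with the block). The inhibitor arrays read 11.15, 11.03 and 10.78 and the inhibitor control arrays 11.13, 11.39 and 10.97. Unlike for MT1M, the 6 inhibitor arm arrays overlapped the mimic range, and only 1 of them, the inhibitor array of repeat 3, lay below the highest mimic control array.

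MT1G, an MT1 isoform gene on the opposite strand between MT1F and MT1H, read 8.95, 9.04 and 8.12 with the mimic against 7.58, 8.14 and 7.67 with the mimic control. The groups overlapped by little, since the mimic array of repeat 3 lay just below the control array of repeat 2. The difference was 0.90 with a standard error of 0.30 (unadjusted p = 0.0116, adjusted p = 0.921 in limma). MT1G was spread widely in the inhibitor arm too, at 8.85, 8.47 and 8.19 with the inhibitor and 8.73, 7.78 and 8.33 with its control.

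The pseudogene MT1L read 6.43, 6.46 and 5.62 with the mimic and 5.40, 5.61 and 5.35 with the mimic control. Mimic array 3 exceeded the highest control array by a narrow margin, and the mean difference was 0.72 with a standard error of 0.22 (unadjusted p = 0.0064, adjusted p = 0.865 in limma). In the inhibitor arm MT1L read 5.90, 6.35 and 6.04, and its inhibitor control arrays lay close together at 6.16, 6.21 and 6.27. The mimic control arrays were thus the low group for this transcript, and 2 of the 3 mimic arrays exceeded all 6 arrays of the inhibitor arms while the remaining one fell below them. The MT1L mimic control values lay near the median of all probe sets on an array, 4.99 to 5.15. Whether they read above background was not tested.

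For MT1F, an MT1 isoform gene in the middle of the cluster, the mimic arrays read 12.06, 11.90 and 11.65 and the mimic control arrays 11.49, 11.33 and 11.21. The groups did not overlap, with a difference of 0.53 and a standard error of 0.16 (unadjusted p = 0.00594, adjusted p = 0.856 in limma). Its inhibitor arrays read 11.67, 11.33 and 11.38 and the inhibitor control arrays 11.59, 11.51 and 11.35. MT2A, the gene of the main MT2 protein, read 10.08, 9.86 and 9.51 with the mimic and 9.51, 9.49 and 9.22 with the mimic control, and mimic array 3 and control array 1 nearly coincided. The MT2A difference was 0.41 with a standard error of 0.17 (unadjusted p = 0.0379, adjusted p above 0.99 in limma). MT1E, an MT1 isoform gene next to MT1L, read 6.68, 6.53 and 6.08 with the mimic and 6.18, 6.07 and 5.85 with its control, and its groups overlapped through the mimic array of repeat 3. The difference of 0.39 for MT1E (standard error 0.19) missed the unadjusted threshold in limma and passed it with the repeat block, where the adjusted p was 0.515.

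The last 3 members gave no call. MT3, the brain isoform, lay between 5.36 and 5.96 on all 12 arrays, and MT4, the epithelial isoform, between 6.26 and 6.81. Their differences were -0.06 for MT3 (95% interval -0.39 to 0.26) and 0.04 for MT4 (95% interval -0.32 to 0.40). In this model without the repeat block, the MT4 interval thus still held a difference of the size seen for MT1E. With the block the MT4 standard error was 0.14, against 0.16 without it, and no interval was computed there. MT1B read 6.73, 5.85 and 4.33 with the mimic and 5.51, 5.83 and 4.60 with the mimic control. Its mimic arrays ran from above to below all control arrays, and the difference of 0.32 had a standard error of 0.54. The median of all probe sets on an array was 4.99 to 5.15, and neither MT1B nor MT3 stood far from it, as for MT1L with the mimic control. Whether these probe sets or that of MT1E read above background was not tested.

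**Figure D2:**
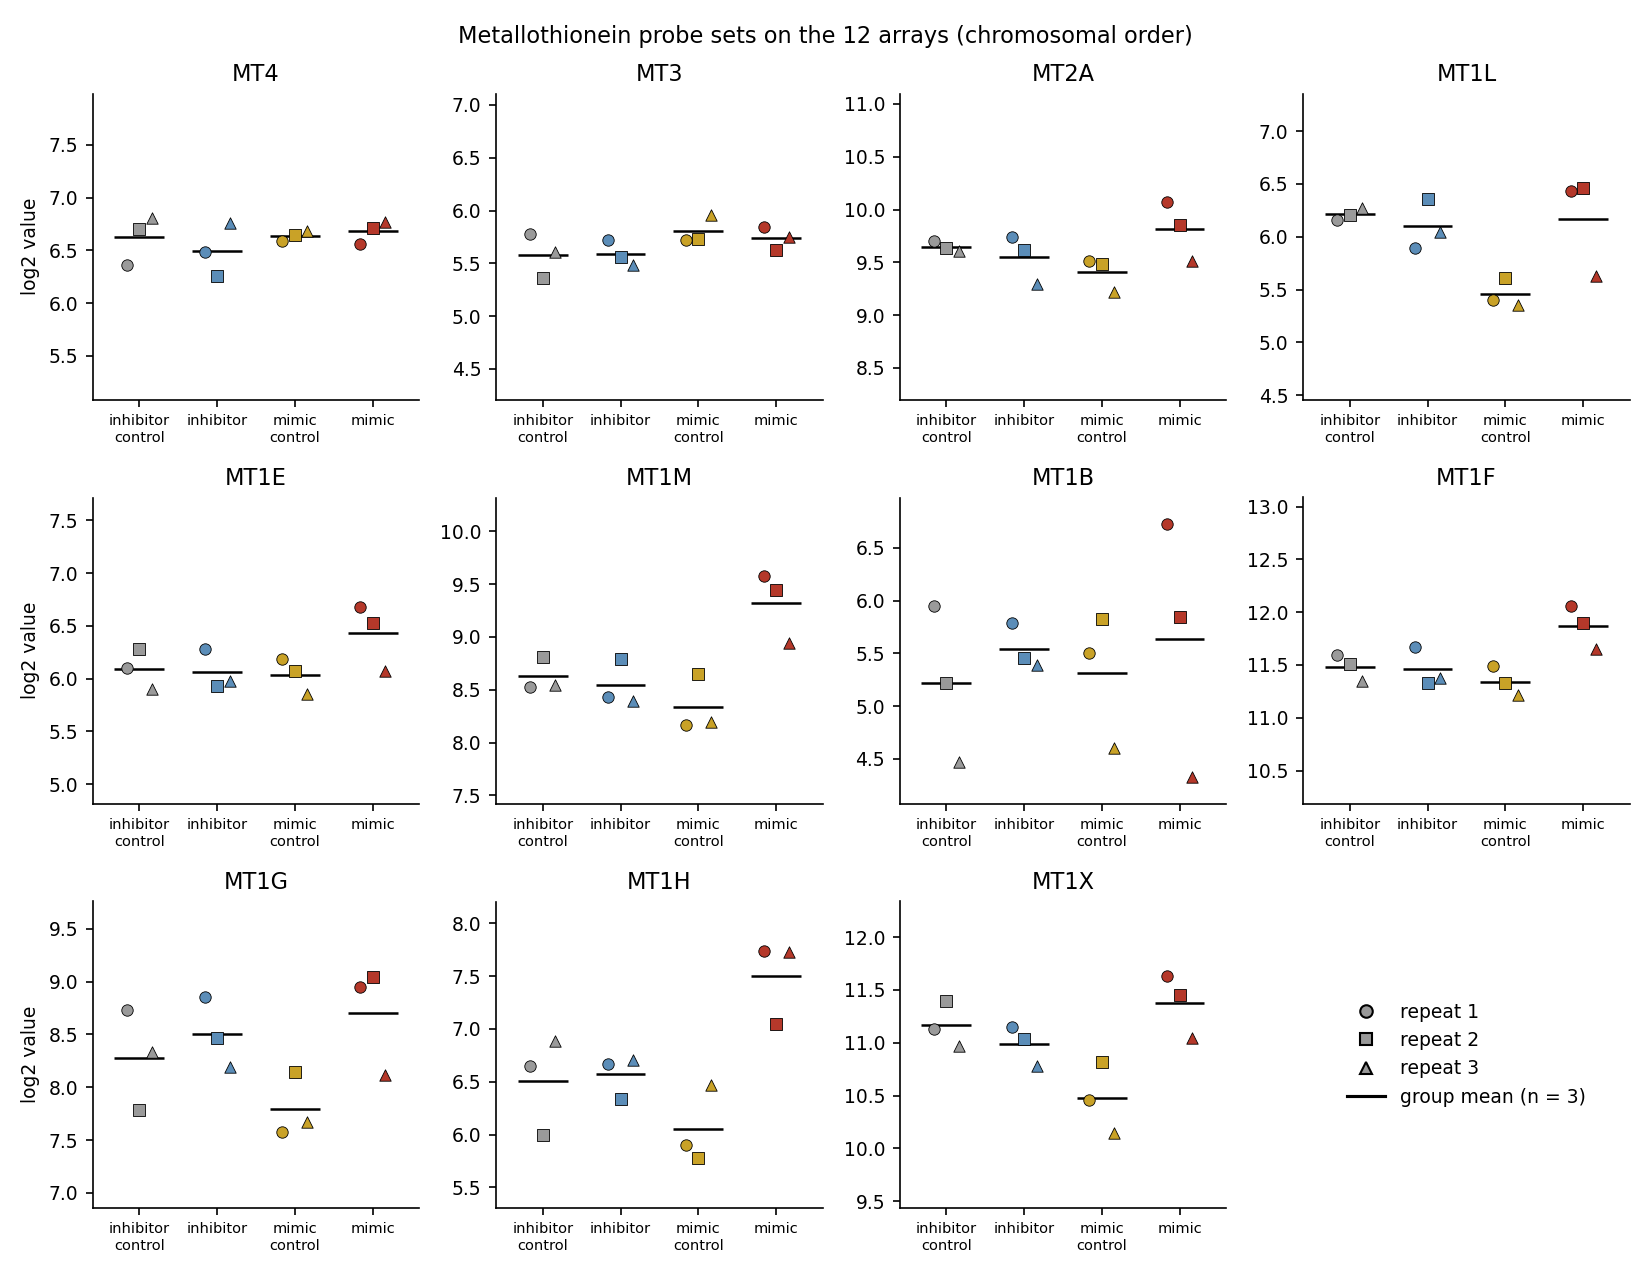
Deposited log2 value (vertical axis, the same span of 2.9 in every panel) of each metallothionein probe set in the 4 groups, with 1 point per array, the point shape giving the repeat and the bar the mean of 3 arrays. MT1H and MT1M have all mimic arrays above the other 9, and MT1L has all mimic control arrays below the other 9. For MT3 and MT4 the mimic arrays overlap those of the mimic control.

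The inhibitor was set against its own control in the same model. Here the mean was higher for 4 members and lower for 7, the median difference being -0.03 with a range of -0.18 (MT1X) to 0.33 (MT1B). None of the 11 reached an unadjusted p under 0.05 in limma, in either direction, against 2.92% of all probe sets, and none an adjusted one, against 0.00187%. The same count of 0 was obtained with the repeat block (background 4.51%). The 95% interval of the difference was -0.54 to 0.66 for MT1H, -0.54 to 0.36 for MT1M and -0.64 to 0.28 for MT1X. A fall of the size of their mimic differences thus lay outside these intervals, whereas changes of either sign up to the limits given did not.

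The responses to mimic and inhibitor were compared directly, as the mimic difference minus the inhibitor difference. This was above 0 for 9 members, with a median of 0.55, and 5 members were at an unadjusted p under 0.05 in limma (1.99% of all probe sets), while no probe set of the array passed at the adjusted threshold (0%). Among these 5 MT1H had the largest value, 1.39 with a standard error of 0.39, followed by MT1X at 1.08 (standard error 0.30), MT1M at 1.07 (0.29), MT1L at 0.83 (0.31) and MT1F at 0.55 (0.22), while MT1G had 0.68 with a standard error of 0.43 and was not called. With the repeat block MT2A was a further call, at 0.51 with a standard error of 0.17 (background 3.17%).

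The mimic control was also compared with the inhibitor control, both being control oligonucleotides. The family was lower with the mimic control for 8 of 11 members, with a median of -0.24 (0.0013 over all probe sets). MT1L had a difference of -0.76 (standard error 0.22, unadjusted p = 0.00461 in limma) and MT1X one of -0.69 (standard error 0.21, unadjusted p = 0.00674), the 2 members below the unadjusted threshold in that direction (2.97% of all probe sets). With the repeat block MT1H was a further one, at a difference of -0.46 and an adjusted p of 0.440 in limma (background 4.6% for the unadjusted threshold with the block). No member passed at the adjusted threshold, where 0.00373% of probe sets did. MT3 was higher with the mimic control, by 0.22 with a standard error of 0.15, and did not pass. What sets the control oligonucleotides apart beyond their sequence is not given in the sources used here.

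The mimic and the mimic control were therefore each set against the 6 arrays of both inhibitor arms, which gives the 2 sides of the mimic difference. The mimic was higher for all 11 members, with a median of 0.30 (0.01 over all probe sets), and the mimic control was lower for 9, with a median of -0.19. MT1H, MT1M and MT1F were higher with the mimic at an unadjusted p under 0.05 in limma (2.53% of all probe sets), and MT1L, MT1X and MT1G were lower with the mimic control (3.63%). None passed at the adjusted threshold, which 0.0187% of probe sets did for the mimic and 0.0205% for the mimic control. With the repeat block 5 members were called for the mimic, MT1E and MT1X being added (background 4.25%), and 4 for the mimic control, with MT1H added (background 5.55%).

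The split differed from gene to gene. MT1M stood 0.74 above the inhibitor arms with the mimic (standard error 0.18) and 0.25 below them with the mimic control (standard error 0.18). MT1F had 0.40 above and 0.13 below, with a standard error of 0.14 for each. MT1H was displaced on both sides, by 0.96 above with the mimic and 0.49 below with the mimic control (standard error 0.24 each). For these 3 members the larger side was thus the mimic.

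MT1L showed the reverse order, 0.02 above with the mimic and 0.70 below with the mimic control (standard error 0.19 each). MT1X stood 0.30 above and 0.60 below (standard error 0.18 each), and MT1G 0.31 above and 0.59 below (standard error 0.26 each). MT2A was almost balanced, with 0.21 above and 0.19 below (standard error 0.15 each). Only the mimic arrays of MT1H and MT1M lay above all 6 arrays (background 1.35%), and only the mimic control arrays of MT1L lay below all 6 (background 2.54%). Single arrays moved the smaller sides. Without mimic array 3, MT1G stood 0.60 above the inhibitor arms with the mimic, level with its 0.59 below, MT1X stood 0.47 above and MT1L 0.29 above, both still under their values below. The MT1G call for the mimic control was lost on leaving out any of 6 of the 12 arrays, and the MT1F call for the mimic, at 0.30, without mimic array 1. Whether the split differs between 2 genes was not tested.

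**Figure D3:**
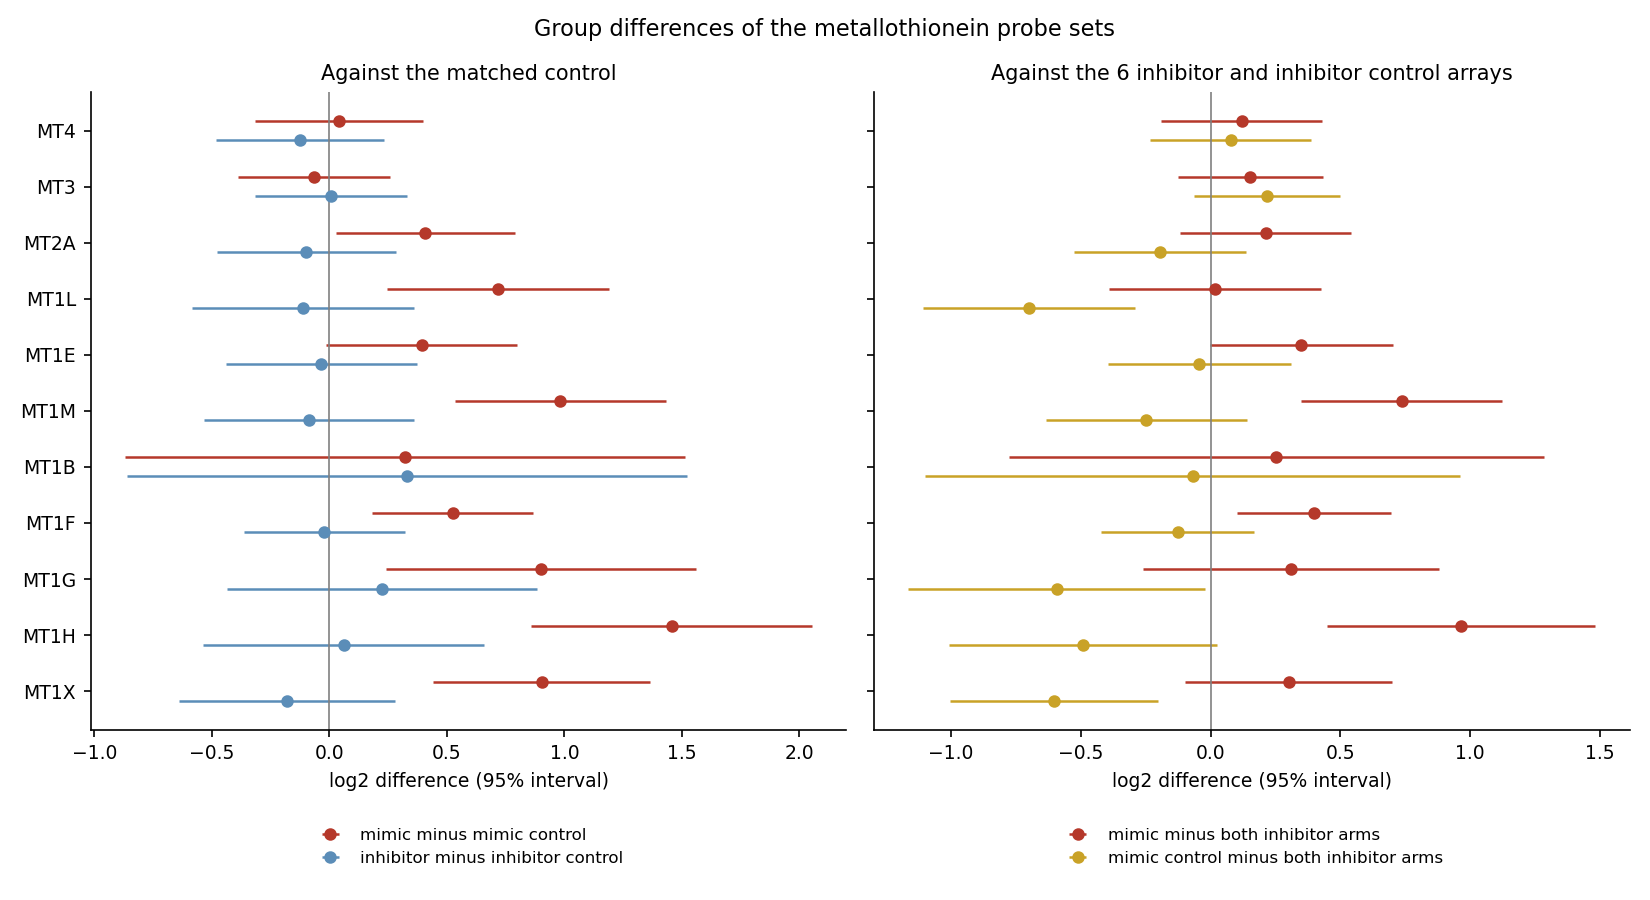
Log2 differences with 95% intervals from limma for each member, against the matched control (left) and against the 6 arrays of the inhibitor arms (right). On the left the mimic intervals of 7 members lie above 0 and no inhibitor interval does, and on the right the mimic is above 0 for MT1H, MT1M and MT1F and the mimic control below 0 for MT1L, MT1X and MT1G.

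The differences were then followed within each repeat, where mimic and control share an occasion. In repeat 1 the mimic was above its control for 10 of 11 members with a median of 1.03, in repeat 2 for 10 with a median of 0.57, and in repeat 3 for 9 with a median of 0.29. Of the 11, 8 (all but MT1B, MT3 and MT4) were higher in each of the 3 repeats, against 14.1% of all probe sets. The largest of the 3 differences fell in repeat 1 for 9 members and the smallest in repeat 3 for 9, and the shares of all probe sets for these 2 counts were not taken. MT1H gave 1.84, 1.27 and 1.26 in the 3 repeats, while MT1L gave 1.03, 0.85 and 0.27 and MT1G 1.37, 0.90 and 0.44.

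Against the mean of the inhibitor arms of the same repeat, the mimic was above for 11, 11 and 7 members in repeats 1, 2 and 3, with medians of 0.43, 0.42 and 0.14. Below that mean in repeat 3 were MT1B, MT1G, MT1L and MT4, MT1L by 0.53. The mimic control was below the inhibitor arms for 10, 7 and 10 members, with medians of -0.31, -0.09 and -0.28. Mimic array 3 had the narrowest spread of values over all probe sets (SD 1.95) and the highest median (5.15) of the 12 arrays, and mimic control array 3 the next (SD 1.98 and 5.10), against an SD of 2.02 to 2.06 in the other 10. The part of this in the smaller differences of repeat 3 was not tested, and after renewed quantile normalization the medians of the 3 repeats were 1.01, 0.51 and 0.30.

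**Figure D4:**
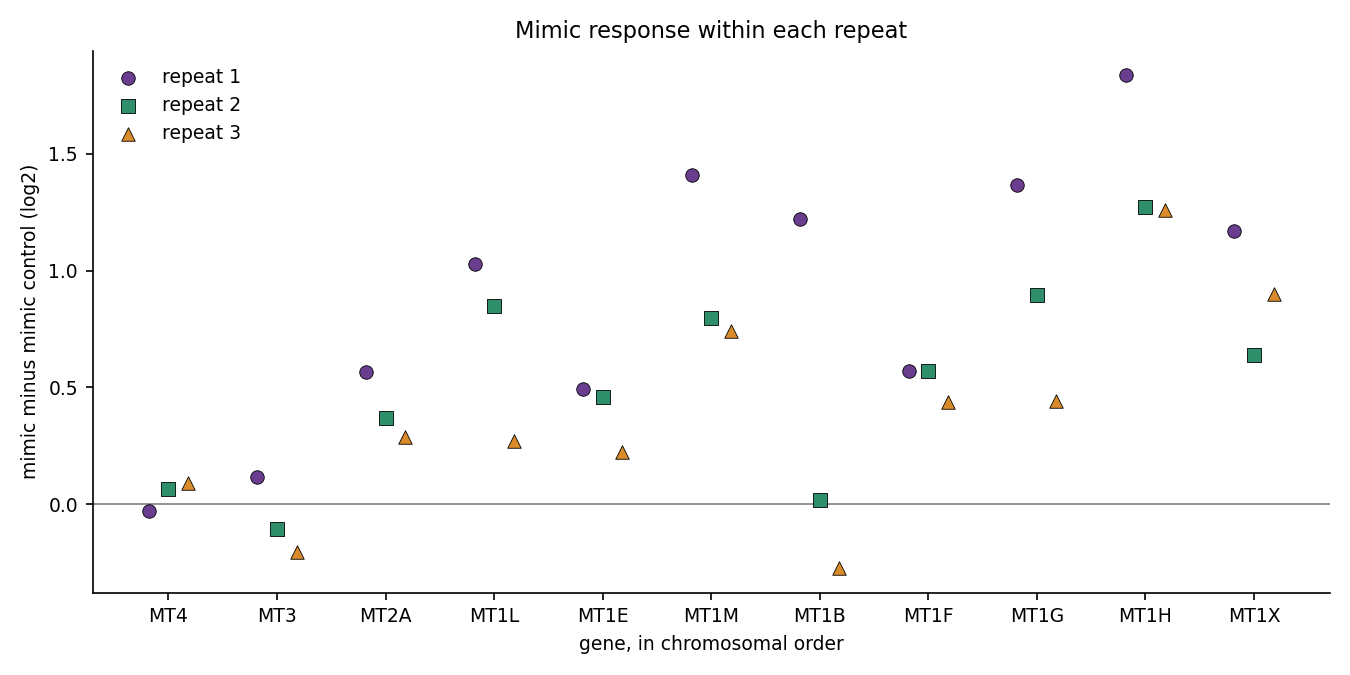
Mimic minus mimic control within each repeat, in log2 units, for the 11 metallothionein probe sets in chromosomal order, with 1 point per repeat. All 3 points are above 0 for 8 members, and repeat 1 is the highest for 9 members and repeat 3 the lowest for 9.

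The family also differed between occasions. The mean of the 4 arrays of a repeat was lowest in repeat 3 for 8 members and in repeats 2 and 1 for 2 and 1 members. The same count was not taken over all probe sets, so whether this is particular to the family was not tested. It went from 5.99 and 5.59 in repeats 1 and 2 to 4.70 in repeat 3 for MT1B, and from 9.76 and 9.65 to 9.41 for MT2A. MT1H was an exception and highest in repeat 3, at 6.95 against 6.74 and 6.29. The arrays of 1 occasion deviated together, with a median correlation over the 11 members of 0.49 between arrays of the same repeat after removal of group means. Between arrays of different repeats and different groups it was -0.29. Removal of group means ties these values, so the negative one follows from the positive one and is no separate result.

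Within the family, likeness over the 12 arrays was uneven. Over the 55 pairs of members the median Pearson r was 0.48 (range -0.50 to 0.93), and 0.29 after removal of group and repeat means. MT1E and MT1F were the most alike pair (r = 0.93, and 0.96 after removal of those means), followed by MT1X and MT2A (r = 0.87). With the mean of the other 10 members, MT1F and MT2A had an r of 0.90 each, MT1M and MT1X 0.84 each, MT1H 0.50, MT3 -0.02 and MT4 -0.21. These correlations share treatment groups and occasions and are given as a description.

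Beyond the family, 7353 named probe sets with a mean of at least 6 were ranked by their correlation with the mean profile of the 11 members over the 12 arrays, and 9 exceeded an r of 0.9. The 5 most alike were RND2, a small GTPase (0.94), STX2, a syntaxin of membrane fusion (0.94), HAMP, the iron hormone hepcidin (0.93), UHMK1, a kinase that acts on RNA splicing factors (0.92), and APOC1, a lipoprotein component (0.92). UHMK1 averaged 8.38 with the mimic against 6.93 with its control, and 7.80 and 7.87 with the inhibitor and its control. APOC1 read 8.71, 7.98, 8.35 and 8.29 in the same order. All 5 had the lowest of their 4 group means with the mimic control and the highest with the mimic, and none had an adjusted p under 0.05 in limma. The ranking itself favours this group order, because 9 of the 11 members were highest with the mimic and 8 lowest with the mimic control. The shared order is therefore no separate result about these 5 genes.

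Other genes that handle metals, or that answer to the known inducers of metallothioneins, were taken from lists and read in the mimic comparison. Of 25 zinc regulators, MTF1 alone had a named probe set, and it averaged 8.002 with the mimic against 7.83 with its control, a difference of 0.17 with a standard error of 0.20. The zinc transporters therefore could not be described. Of 17 genes of copper handling 10 were measured, 5 higher and 5 lower, with a median of 0.03 and none at an unadjusted p under 0.05 in limma. Among mitochondrial copper proteins, SCO1 and COX17 had differences of -0.27 each (standard errors 0.17 and 0.27). COX11 had one of 0.13 and SCO2 one of -0.0076 (standard errors 0.12 and 0.13). XIAP, an inhibitor of apoptosis that also binds copper, had one of 0.18 (standard error 0.17), and COMMD1 one of 0.14 (standard error 0.14).

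Of 15 NRF2 pathway genes 7 were measured, 4 higher and 3 lower, with a median of 0.04. TXNRD1, thioredoxin reductase of the cytosol, was the single one at an unadjusted p under 0.05, higher by 0.62 with a standard error of 0.17 (adjusted p = 0.786 in limma). Its mean was 8.16 with the mimic, 7.54 with the mimic control, 8.31 with the inhibitor and 8.28 with the inhibitor control, so the mimic control was its low group. SRXN1 and SQSTM1 had differences of 0.19 and 0.17 (standard errors 0.18 and 0.14). HMOX1, a heme oxygenase that oxidants and metals induce, had one of -0.12 (standard error 0.40), and NFE2L2, the gene of NRF2, one of -0.19 (standard error 0.18).

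Of 14 glucocorticoid target genes 11 were measured, 8 higher and 3 lower, with a median of 0.12. DUSP1, a phosphatase of MAP kinases, was higher by 0.50 (standard error 0.14, adjusted p = 0.838 in limma), while FKBP5, a standard glucocorticoid target, had a difference of -0.25 (standard error 0.18) and ZBTB16, a zinc finger repressor, one of 0.21 (standard error 0.17). With the repeat block IGFBP1 and SGK1 joined DUSP1 at the unadjusted threshold, with adjusted p-values of 0.404 and 0.628 in limma. IGFBP1, a liver binding protein of insulin-like growth factors, differed by 0.99 with a standard error of 1.21 without the block.

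Of 17 acute phase genes 13 were measured, 8 higher and 5 lower, with a median of 0.05. HAMP was higher by 0.54 (standard error 0.16) and FGB, the fibrinogen beta chain, by 0.41 (standard error 0.17), the 2 at an unadjusted p under 0.05. SOCS3, a feedback target of interleukin-6 signalling, had a difference of -0.30 (standard error 0.17), and HP, haptoglobin, one of -0.89 with a standard error of 0.70. With the block HP and ORM2, an acid glycoprotein, were lower at the unadjusted threshold, with adjusted p-values of 0.273 and 0.447 in limma.

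Of 11 heat shock genes 7 were measured, 1 higher and 6 lower, with a median of -0.19. HSPB1, a small heat shock protein, was lower by 0.89 with a standard error of 0.17, at the unadjusted threshold alone (adjusted p = 0.258 in limma). The near-identical genes HSPA1A and HSPA1B had differences of -0.17 and -0.19 (standard errors 0.40 and 0.39). Whether their probe sets each read both genes was not tested. Over these lists no gene passed at the adjusted threshold, with or without the repeat block.

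The cluster's neighbours on chromosome 16 were read as well, as the 5 nearest protein coding genes with a probe set on each side (CES1, CES5A, NUDT21, OGFOD1 and BBS2 on one, NUP93, CPNE2, RSPRY1, ARL2BP and PLLP on the other). Of these 2 were higher and 8 lower with the mimic, with a median of -0.14 and none at an unadjusted p under 0.05. BBS2, a gene of the primary cilium that lies next to MT4, had a difference of 0.37 (standard error 0.18), and NUP93, a nuclear pore gene next to MT1X, one of -0.21 (standard error 0.20). With the block CPNE2, a calcium-binding copine, and PLLP, plasmolipin, were lower, with differences of -0.67 and -0.86 and adjusted p-values of 0.451 and 0.143 in limma.

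The label of the cells was checked on marker lists. Of 14 hepatocyte markers 11 were measured, and the median over their group means was 11.90 to 12.29 in the 4 groups. With the mimic 8 of the 11 were higher and 3 lower, with a median of 0.20. At an unadjusted p under 0.05 in limma 2 of them were higher, APOA2, a lipoprotein component, by 0.35 (standard error 0.12) and FGB as above, and with the repeat block 4, with APOH and AHSG, both secreted plasma proteins, added at differences of 0.32 and 0.43 (standard errors without the block 0.21 and 0.23). The part of this in the metallothionein differences was not tested. For 10 of 17 markers of other cell types with a probe set, the median over their group means was 5.39 to 5.64 in the 4 groups. The highest group means were those of the macrophage markers LYZ (10.52 to 11.06) and CD68 (7.95 to 8.57) and the bile duct marker EPCAM (8.45 to 8.66). The summed log2 value of the 10 was 60.1 to 63.3 over the 12 arrays and overlapped in all groups, and no marker reached the unadjusted threshold. Of these 10, 5 were higher and 5 lower with the mimic, with a median of 0.0051. KRT19, a keratin of bile duct cells, had the lowest p, with a difference of 0.35 (standard error 0.26), and LYZ, a lysozyme of macrophages, had one of -0.31 (standard error 0.24). On bulk arrays less RNA per cell and fewer cells of a kind cannot be told apart.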

How the data were processed

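Each of 12 HuH-7 cultures gave RNA for 1 Affymetrix array. The deposited values are log2 signals that the authors normalized in Expression Console, and they were used without further scaling. Its version and settings were not given in the sources used here, nor was a genome build. The methods name a higher oligonucleotide dose than the 9 nM of the labels. All 53617 probe sets were kept, and groups were taken from the sample labels.

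Tests used limma 3.58.1 under R 4.3.3, with a model of 4 groups over 12 arrays with 6 contrasts, and p-values were adjusted by Benjamini-Hochberg over the 53617 probe sets, with a threshold of 0.05. Standard errors and 95% intervals are those of this model. Its recovery of known changes was tested on simulated data. Precision is limited by the number of arrays, 3 cultures a group. The p-values rest on a spread between cultures that is pooled over the 4 groups and moderated over all probe sets. Without the repeat block this spread includes that between occasions.

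The members, lists and comparisons were chosen with earlier results of these data known. The text names every member, the 5 most alike probe sets and genes of each list, mostly from the 4 with the lowest p. HSF1, HSPH1, HSPD1, OGFOD1, TF and KRT7 were among the 4 of their lists and are given without a value. Other genes named lay outside the 4, among them COX17, SCO2, HMOX1, IGFBP1, HP, HSPA1A, HSPA1B, APOH, EPCAM and NUP93. They were chosen for their role or level after their values were seen. Gene positions and sequences are from RefSeq (GRCh38.p14), with motifs searched in Python.

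By the series' design text the repeat number marks a distinct occasion, so it pairs the arrays. Once group means were removed, the median correlation was 0.24 over the 18 pairs of arrays that share a number. It was -0.14 over 36 pairs that share neither number nor group, a negative value that removal of group means ties to the positive one. The block with this number was an alternative. The others were renewed quantile normalization, a common median, a filter on dim probe sets, models of only those arrays that are compared, an intensity trend with a robust prior, the methods' two-tailed test, only probe sets with 1 symbol, and leaving out each array or repeat.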

Additional observations from a re-analysis of the deposited data

How the results depend on the processing

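Of 938 values of 42 results under 23 alternatives, 916 were labelled unchanged. They kept their direction and their side of the adjusted threshold, or moved by less than the spread or the 1.5 times set for counts. No member passed the adjusted threshold in the main fit, so for single members this label does not measure the unadjusted calls. MT2A for the mimic against its control was under the unadjusted threshold in 14 of 23 settings. MT1G for the mimic control against the inhibitor arms was so in 14 of 22, and the MT1F difference of responses in 9 of 21. MT1H, MT1M and MT1X for the mimic against its control were so in all 23. The repeat number as a replicate block gave 1 adjusted call, MT1H at its unchanged difference of 1.46 (adjusted p = 0.0221 in limma), and 5 members for the mimic against the inhibitor arms. It changed no other call of a metallothionein beyond those given in the text. The methods' two-tailed test gave 4 members for the mimic against its control at the unadjusted threshold. For this test, and for the left-out arrays and repeats below, the share of all probe sets called was not counted. Those counts of members are thus given without a background.

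Leaving out arrays or repeats gave 4 (without repeat 1) to 8 (without mimic replicate 3) members for the mimic against its control, with a median of 0.43 to 0.97 (without mimic replicate 3). The mimic against the inhibitor arms gave 2 to 8 members and a median of 0.18 to 0.51, both highest without mimic replicate 3. The mimic control gave 2 to 4 members against the inhibitor control (4 without inhibitor control replicate 2 and without repeat 2), and 1 (without repeat 1) to 4 against the inhibitor arms. The difference of responses gave 1 (without repeat 1) to 8 (without mimic replicate 3) members, and 3 without mimic replicate 1, without mimic replicate 2 and without repeat 2.

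Reversed were MT1B at -0.23 (without mimic replicate 1), -0.03 (without mimic control replicate 3) and -0.13 (without repeat 1), its range being -0.23 to 0.97, MT4 at -0.0035 (without mimic replicate 3), its range reaching 0.10, and MT3 at 0.013 (without mimic control replicate 3, and 0.0072 without repeat 3), its range starting at -0.15. None of these 3 was called, and the cause was not tested. Contrasts of more than 2 groups have no value under the two-tailed test.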
